A study of Homo sapiens with 2 samples.

Results

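The integrin and laminin genes of GFP-SAS cells were described on a pair of Affymetrix 3' expression arrays. Their members were all probe sets whose single annotated gene symbol belongs to an integrin α subunit, an integrin β subunit or a laminin α, β or γ chain. This rule found 103 probe sets of 36 genes, among 18239 genes with an annotated probe set. The rule reads gene symbols and not expression values, but the family was picked with earlier results of these data known. The 36 genes were 18 integrin α, 8 integrin β and 10 laminin genes. GFP-SAS is a tongue squamous cell carcinoma line, SAS, that carries green fluorescent protein. The anti-miR-361-3p group was given an antisense oligonucleotide of mixed LNA and DNA that pairs with miR-361-3p, at 25 nM for 24 h. The control group was given a non-target (NT) oligonucleotide of the same chemistry, also at 25 nM for 24 h. Biotin-labelled material made from 10 ng of total RNA per group was hybridised to 1 array, so the comparison is between 2 arrays of 1 cell line, with no replicate. No p-value and no error between cultures can be given. An error printed below is the SD over the probe sets of a gene, which may share probes and which holds only technical spread within the arrays.

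Integrins are receptors made of an α and a β subunit that join the extracellular matrix, or other cells, to the actin or keratin cytoskeleton. The α subunit sets much of the ligand choice, and most α subunits pair with β1. Laminins are trimers of an α, a β and a γ chain and are main components of basement membranes, the sheets on which epithelial cells rest. In squamous epithelium, integrin α6β4 binds laminin-332 in hemidesmosomes, while β1 and αv integrins act in focal adhesions. MicroRNAs guide silencing complexes to messenger RNAs, chiefly through pairing of their seed.

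The sequence targeted by the oligonucleotide is shown because it defines the treatment. The RefSeq record (GRCh38.p14) places it at chrX:85903641-85903663 on the - strand, and capitals mark the seed, bases 2 to 8.
hsa-miR-361-3p: uCCCCCAGgugugauucugauuu

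Start regions of 4 members follow, each from 250 bases before to 50 bases after the annotated start (RefSeq, GRCh38.p14). ITGAV, ITGA6 and LAMB1 were among the genes with the lowest differences, and ITGB1, the partner of both α subunits, did not pass 1.5-fold. ITGAE, with a difference below that of LAMB1, is not shown, and its window is described after the sequences. Capitals mark the motifs searched on both strands, which were a GC box (GGGCGG), an AP-1 motif (TGANTCA) and a TEAD motif (CATTCC). For genes with 2 listed windows the one with more CpG is shown.
ITGAV, chr2:186589806-186590105, + strand: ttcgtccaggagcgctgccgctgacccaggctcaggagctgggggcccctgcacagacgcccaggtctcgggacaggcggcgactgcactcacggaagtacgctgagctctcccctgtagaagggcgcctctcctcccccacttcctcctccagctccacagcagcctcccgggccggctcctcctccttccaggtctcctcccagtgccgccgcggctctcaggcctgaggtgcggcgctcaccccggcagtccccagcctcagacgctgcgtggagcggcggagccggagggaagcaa
ITGA6, chr2:172427336-172427635, + strand: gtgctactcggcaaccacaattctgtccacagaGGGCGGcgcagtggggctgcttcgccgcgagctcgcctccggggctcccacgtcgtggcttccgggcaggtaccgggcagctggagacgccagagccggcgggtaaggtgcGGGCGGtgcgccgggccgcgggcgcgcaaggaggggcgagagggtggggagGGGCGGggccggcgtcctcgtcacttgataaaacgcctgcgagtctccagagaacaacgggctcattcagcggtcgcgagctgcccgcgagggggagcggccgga
LAMB1, chr7:108003112-108003411, - strand: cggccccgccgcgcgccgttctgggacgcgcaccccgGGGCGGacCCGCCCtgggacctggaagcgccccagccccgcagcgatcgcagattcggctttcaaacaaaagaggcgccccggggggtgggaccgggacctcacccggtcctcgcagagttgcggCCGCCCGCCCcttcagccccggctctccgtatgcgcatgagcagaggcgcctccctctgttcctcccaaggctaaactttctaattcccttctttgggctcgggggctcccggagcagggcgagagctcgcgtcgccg
ITGB1, chr10:32958181-32958480, - strand: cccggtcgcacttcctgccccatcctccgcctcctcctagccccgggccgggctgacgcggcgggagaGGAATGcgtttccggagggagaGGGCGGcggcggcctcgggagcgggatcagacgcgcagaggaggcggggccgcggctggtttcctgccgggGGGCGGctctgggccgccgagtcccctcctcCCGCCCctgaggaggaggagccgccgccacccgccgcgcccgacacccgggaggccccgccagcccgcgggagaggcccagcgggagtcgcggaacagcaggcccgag

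The G and C share of the windows shown was 70.7% in ITGAV, 72.0% in ITGA6, 71.0% in LAMB1 and 78.3% in ITGB1, and the median over all 35116 listed windows was 58.7%. They held 23, 38, 35 and 39 CpG in that order, beside a median of 14. The choice by CpG favours such values. The other listed windows of these genes had G and C shares of 41.3% in ITGAV, 53% in ITGA6 and 40.7% in ITGB1, with 1, 11 and 4 CpG, all below those medians. The ITGA6 window held 3 GC boxes, the LAMB1 window 4 (of which a pair overlaps) and the ITGB1 window 3, while the ITGAV window held none. ITGA2, ITGA4 and ITGAE, the other members past 1.5-fold lower, have 1 listed window each. Their G and C shares were 72.7%, 72.3% and 61.3%, with 27, 31 and 10 CpG and 4, 0 and 0 GC boxes, so the ITGAE window lay below the CpG median. At least 1 GC box stands in 44.95% of all windows. An AP-1 motif, found in 7.71% of all windows, was in none of the 4, and the ITGB1 window alone held a TEAD motif, found in 14.03%. Windows were listed for 25 of the 36 genes.

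Expression was deposited on the log2 scale, as 1 value per probe set and array. The array median was 4.64 on the anti-miR-361-3p array and 4.63 on the control array. Probe sets at or above the median of at least 1 array were retained, and a gene with such a probe set is called measured, with the mean over its retained probe sets as its value. Without detection calls, the 23 nonspecific control probe sets served as a description of background, and they reached 7.16 on the anti-miR-361-3p array and 6.87 on the control array. A level below them cannot be told from background, and a fold against it is not an exact size. In total RNA of a culture, fewer cells with a transcript and less of it per cell cannot be told apart. The spiked poly-A control transcripts differed by 0.32 ± 0.19 (SD over 12 probe sets), and the median gene by 0.13, both higher on the anti-miR-361-3p array. Their part in the differences below was not tested.

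Epithelial identity was checked with markers. Marker levels are means over all probe sets of a gene, dim ones included, so a brighter single probe set can be hidden. Of 7 squamous epithelial markers with a probe set, 6 were measured. KRT5, SFN, EPCAM and DSP exceeded the nonspecific controls on both arrays, while CDH1 and DSG3, also measured, did not on either. KRT14 was dim, at 3.87 on the anti-miR-361-3p array and 3.63 on the control array. The other lists were leukocytes (5 genes), platelets (4), endothelium (5), fibroblasts (6), skeletal muscle (5) and neural cells (4). None of these markers exceeded the nonspecific controls on either array. Measured among them were 1 leukocyte, 1 platelet, 2 endothelial, 0 fibroblast, 3 skeletal muscle and 4 neural genes. The rule for a measured gene alone therefore does not separate the epithelial list from the others.

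Of the 36 genes, 20 were measured, namely 8 integrin α, 5 integrin β and 7 laminin genes, through 45 of the 103 probe sets. At a threshold of 1.5-fold (0.58 on the log2 scale), 6 of the 20 were lower on the anti-miR-361-3p array, 14 lay within the threshold and none was higher. The lower genes were ITGAV, ITGA6, ITGAE, LAMB1, ITGA2 and ITGA4. Of all 11272 measured genes, 14.2% were lower and 8.23% higher by the same rule, against 30% and 0% of the measured members. The median difference (anti-miR-361-3p minus control, log2) was -0.24 over the measured members and 0.13 over all measured genes. With every probe set kept it was -0.06 over all 36 members and 0.10 over 18239 genes. At 2-fold, 4 members remained lower (ITGAV, ITGA6, ITGAE and LAMB1) and none was higher, with a background of 6.98% lower and 1.23% higher. These shares describe 2 arrays, and 20 genes are few.

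The groups of members differed in how far they moved. Among the measured integrin α genes 5 of 8 were lower, with a median difference of -0.65, while all 18 α genes with every probe set kept had 4 lower and a median of 0.01. None of the 5 β genes was past the threshold, and their differences ran from -0.25 to -0.08, with a median of -0.16. Of the 7 laminin genes LAMB1 alone was lower, and the laminin median was -0.12. By probe set, 10 of 15 retained α probe sets were lower and 1 was higher, against 0 of 14 for β and 2 lower of 16 for laminins. Over all 24127 retained probe sets 16.9% were lower and 8.60% higher. A probe set that is retained through its control level alone had to be lower, so the retained members are not all members. With all 103 probe sets kept, 5 of 36 genes were lower and none was higher, against 7.37% lower and 4.40% higher of 18239 genes.

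**Figure D1:**
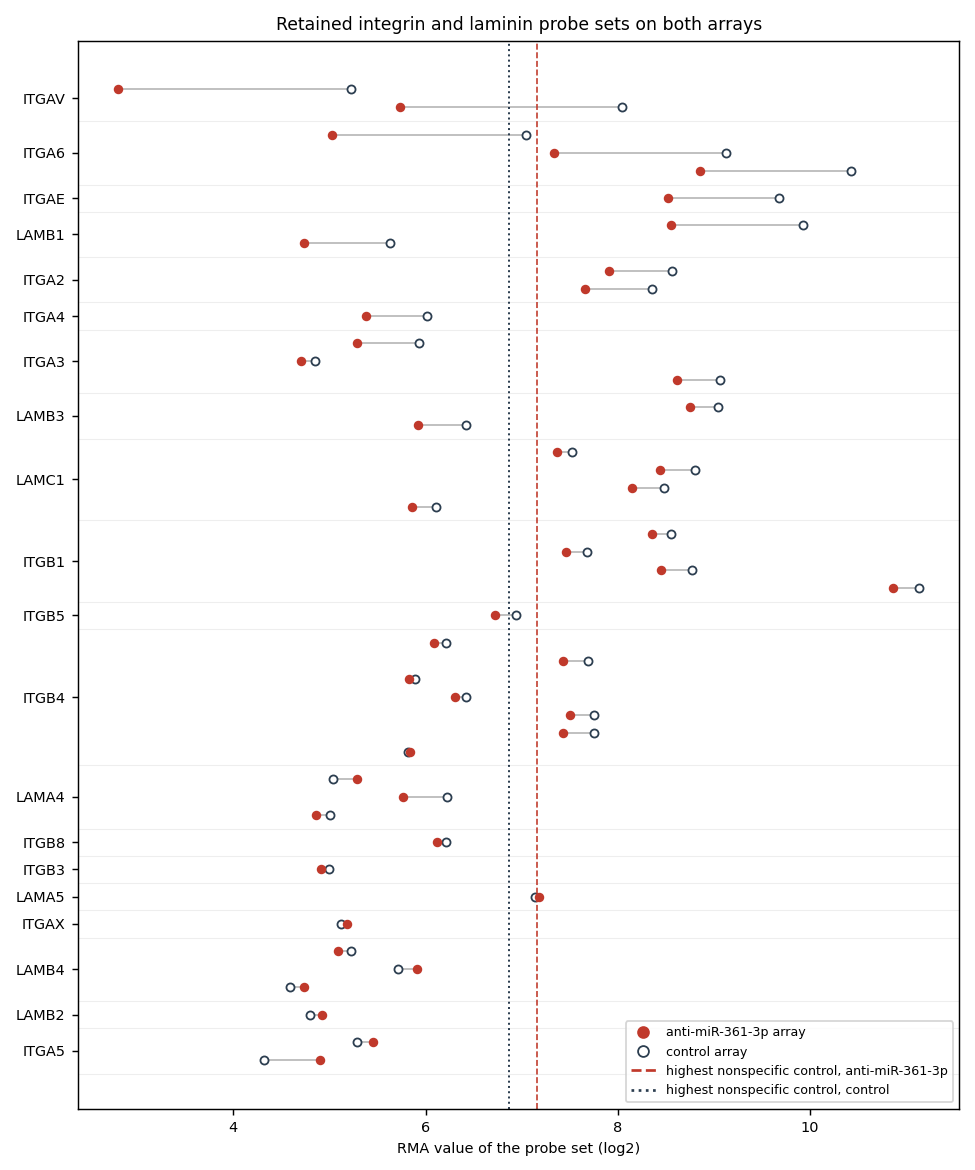
Each row is a retained probe set of an integrin or laminin gene, and the horizontal axis is its RMA value (log2). Filled circles are the anti-miR-361-3p array and open circles the control array, with vertical lines at the highest nonspecific control probe set of each array (7.16 and 6.87). The gaps are widest for ITGAV and ITGA6, and all 4 ITGB1 rows show gaps of at most 0.31.

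ITGAV encodes αv, the subunit shared by the receptors for vitronectin and for the latent form of TGF-β. It had the lowest difference of the family, -2.36 ± 0.08 (SD over 2 retained probe sets), a 5.13-fold lower level and rank 39 from the lowest of 11272 genes. One probe set read 5.74 on the anti-miR-361-3p array and 8.04 on the control array. The other read 2.81 on the anti-miR-361-3p array and 5.23 on the control array. It was retained through the control array alone and so had to be lower, and without it ITGAV differed by -2.30. The small SD rests on this pair and is not a measure of certainty. Both anti-miR-361-3p values lay below the highest nonspecific control, so the fold is not an exact size. Its 3 dim probe sets gave -1.26, -0.40 and 0.01, and the mean over all 5 was -1.28.

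ITGA6 encodes α6, the laminin-binding partner of β4 in hemidesmosomes and also of β1. Its 3 probe sets read 5.03, 7.34 and 8.86 on the anti-miR-361-3p array, against 7.04, 9.13 and 10.43 on the control array. Every probe set was lower by more than 1.5 on the log2 scale, and 2 of the 3 stayed above the nonspecific controls on the anti-miR-361-3p array. The gene's difference was -1.79 ± 0.22 (SD over 3 probe sets), 3.46-fold lower, at rank 159.

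ITGA3 and ITGA7 encode the other laminin-binding α subunits. ITGA3, the α3 partner of β1 and a receptor for laminin-332 and laminin-511, read 8.62, 5.29 and 4.70 on the anti-miR-361-3p array, against 9.06, 5.94 and 4.85 on the control array. Its difference of -0.41 ± 0.25 (SD over 3 probe sets) did not reach 1.5-fold, and 1 of its probe sets (-0.65) did. ITGA7, the α7 subunit known from muscle, was dim.

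Among the collagen-binding α subunits only ITGA2 was measured. It encodes α2, which pairs with β1 as a collagen receptor of epithelial cells and platelets. Its 2 probe sets read 7.91 and 7.66 on the anti-miR-361-3p array, against 8.56 and 8.35 on the control array. All 4 values exceeded the nonspecific controls, and the difference was -0.67 ± 0.03 (SD over 2 probe sets), 1.59-fold lower. ITGA1, ITGA10 and ITGA11, the other collagen-binding subunits, had dim probe sets alone, with mean differences of -0.11, 0.00 and 0.19.

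ITGA5 encodes α5, which pairs with β1 as the fibronectin receptor. Its difference was 0.38 ± 0.30 (SD over 2 probe sets), which did not reach 1.5-fold. The probe set with the larger difference was retained through the anti-miR-361-3p array alone, and without it ITGA5 differed by 0.16. The retained probe sets read 5.46 and 4.90 on the anti-miR-361-3p array, against 5.29 and 4.32 on the control array. All 4 of its probe sets, the dim ones included, were higher on the anti-miR-361-3p array, and all lay within the range of the nonspecific controls. ITGA8, whose product binds nephronectin, and ITGA2B, the platelet αIIb subunit, were dim.

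Of the subunits best known from leukocytes, ITGAE and ITGA4 were lower. ITGAE encodes αE, the partner of β7 that binds E-cadherin on epithelial cells. Its single probe set read 8.53 on the anti-miR-361-3p array and 9.68 on the control array, both above the nonspecific controls, a difference of -1.15 or 2.22-fold. HASPIN and P2RX5, coding genes that overlap ITGAE in the genome, differed by 0.08 and 0.45. ITGB7, its only known partner, was dim on both arrays, at no more than 4.46. ITGA4, which encodes the α4 receptor for VCAM1 and fibronectin, read 5.39 on the anti-miR-361-3p array and 6.02 on the control array in 1 retained probe set, a difference of -0.63. Neither value exceeded the nonspecific controls, and the mean over its 5 probe sets was -0.22. ITGAX, the αX subunit of myeloid cells, differed by 0.06 (1 probe set), while ITGAL, ITGAM, ITGAD and ITGA9 were dim.

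**Figure D2:**
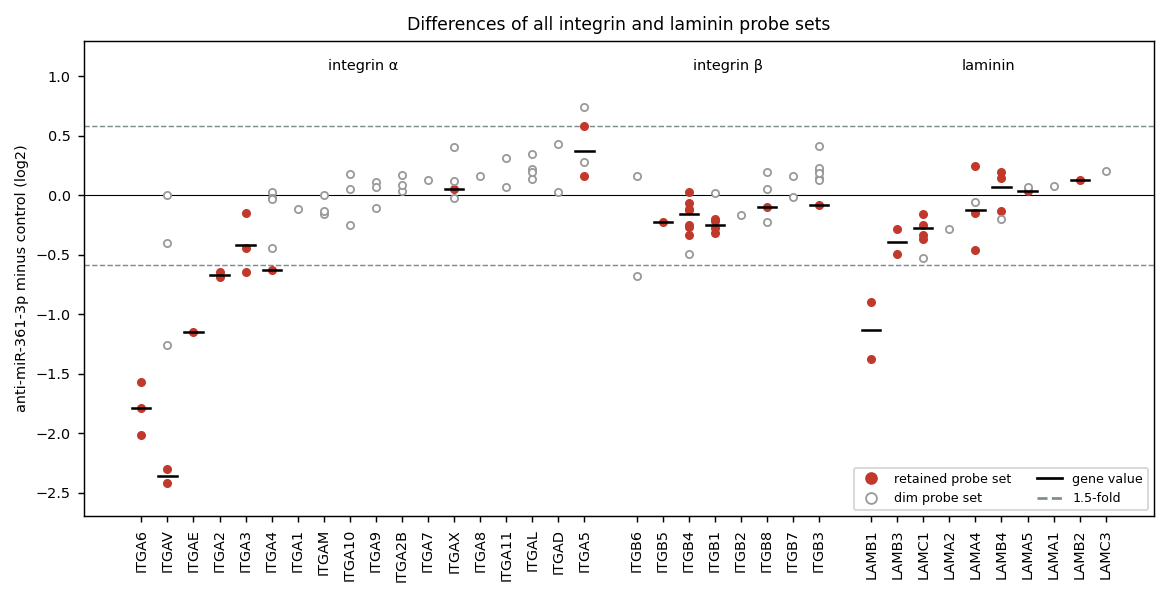
The vertical axis is the difference (anti-miR-361-3p minus control, log2) of all 103 probe sets, by gene and group. Filled circles are retained and open circles dim probe sets, bars are gene values, and dashed lines mark 1.5-fold. The α genes spread from -2.36 to 0.38, while the bars of the 5 measured β genes lie between -0.25 and -0.08.

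The β subunits stayed within the threshold. ITGB1 encodes β1, the most widely shared β subunit. Its 4 retained probe sets read 8.35, 7.46, 8.45 and 10.86 on the anti-miR-361-3p array, against 8.55, 7.68, 8.77 and 11.14 on the control array. All 8 values exceeded the nonspecific controls, and the difference was -0.25 ± 0.05 (SD over 4 probe sets). ITGB4 encodes β4, which binds plectin through its long cytoplasmic tail and anchors keratin filaments. Its 7 retained probe sets differed by -0.33 to 0.03, with a mean of -0.16 ± 0.13 (SD over 7 probe sets). In 6 of the 7 the anti-miR-361-3p value was the lower. The dim ITGB4 probe set gave -0.50, and the mean over all 8 was -0.20.

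The remaining measured β genes had 1 retained probe set each and encode partners of αv. ITGB5 read 6.72 on the anti-miR-361-3p array and 6.94 on the control array (-0.22). ITGB8, whose product binds latent TGF-β, read 6.12 on the anti-miR-361-3p array and 6.22 on the control array (-0.10). ITGB3 read 4.91 on the anti-miR-361-3p array and 4.99 on the control array (-0.08), and its 6 dim probe sets were all higher on the anti-miR-361-3p array, by 0.13 to 0.42. ITGB6, the epithelial partner of αv, was dim, with probe set differences of -0.68 and 0.17. ITGB2, the β subunit of leukocytes, and ITGB7 were dim too.

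Of the laminin β chains, LAMB1 stood apart. It encodes β1, a chain of laminin-111, laminin-411 and laminin-511. Its 2 probe sets read 8.55 and 4.73 on the anti-miR-361-3p array, against 9.92 and 5.63 on the control array. Both were past 1.5-fold, and the difference was -1.13 ± 0.34 (SD over 2 probe sets), 2.19-fold lower. LAMB4, its neighbour among the coding genes of chromosome 7, differed by 0.07 ± 0.17 (SD over 3 probe sets), with all values inside the range of the nonspecific controls. LAMB2, which encodes the β2 chain of laminin-521, differed by 0.13 (1 probe set). LAMB3, which encodes the β3 chain of the hemidesmosome ligand laminin-332, read 8.75 and 5.92 on the anti-miR-361-3p array, against 9.04 and 6.42 on the control array. Its difference of -0.39 ± 0.15 (SD over 2 probe sets) did not reach the threshold.

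LAMC1 encodes γ1, the chain that most laminins share. Its 4 retained probe sets read 7.36, 8.44, 8.15 and 5.86 on the anti-miR-361-3p array, against 7.52, 8.81, 8.48 and 6.11 on the control array. All 4 read lower on the anti-miR-361-3p array, and the mean difference was -0.28 ± 0.10 (SD over 4 probe sets), within the threshold. LAMA5, which encodes the α5 chain of most epithelial basement membranes, read 7.18 on the anti-miR-361-3p array and 7.14 on the control array (0.04). The probe sets of LAMA4, whose α4 chain is known from vessels and muscle, disagreed in sign, at 0.25, -0.15 and -0.46, with a mean of -0.12 ± 0.35 (SD over 3 probe sets). LAMA1, LAMA2 and LAMC3 were dim.

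The 16 members that were not measured had no probe set at the median of either array. Their mean differences over all probe sets ran from -0.28 in LAMA2 to 0.23 in ITGAD, and none reached 1.5-fold. Of the 58 dim member probe sets 2 were lower and 1 was higher past 1.5-fold. Relative to the median gene, which differed by 0.13, ITGA5 alone of the measured members lay above it, since ITGAX, LAMA5, LAMB2 and LAMB4 differed by 0.04 to 0.13.

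The subunits were then set side by side in the receptors that they are known to form. Of 24 known αβ pairs, 10 had both subunits measured. The mean of the 2 subunit differences was past 1.5-fold lower in 6 pairs and past 1.5-fold higher in none. The pairs with αv were αvβ1 (-1.31), αvβ5 (-1.29), αvβ8 (-1.23) and αvβ3 (-1.22), and the others were α6β1 (-1.02) and α6β4 (-0.98). All 6 hold ITGAV or ITGA6, so these pairs are not independent of each other, and a transcript mean does not measure a receptor. With every probe set kept, the αv means shrank to -0.74 for αvβ1, -0.75 for αvβ5 and -0.65 for αvβ8, and αvβ3, at -0.55, no longer passed the threshold. The α2β1 (-0.46), α4β1 (-0.44), α3β1 (-0.33) and α5β1 (0.06) pairs lay within the threshold.

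In 9 of the 10 pairs the α difference was below the β difference. The gap was widest in αvβ3, where the α minus β difference was -2.28. Its ITGB3 value rests on 1 retained probe set, below the highest nonspecific control on both arrays. The size of this gap is therefore not exact. In α5β1 the α minus β difference was 0.63, the one pair in which the α difference was the higher. The 10 pairs were formed by 6 α and 5 β genes, and 6 of them share ITGB1. Of the other 14 pairs 11 had 1 subunit measured and 3 had none.

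**Figure D3:**
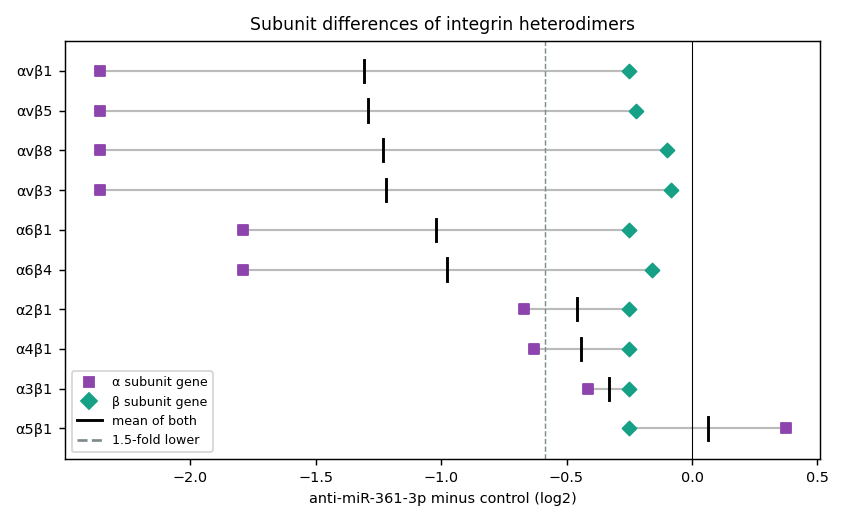
For each of the 10 integrin pairs with both subunits measured, the horizontal axis is the difference (anti-miR-361-3p minus control, log2). Squares are the α gene, diamonds the β gene, the upright bar their mean, and the dashed line 1.5-fold lower. The α square lies left of the β diamond in all pairs except α5β1.

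Of 14 known laminin trimers, 4 had every chain measured, and none was past the threshold. Laminin-411 and laminin-511, which hold the LAMB1 chain, had mean chain differences of -0.51 and -0.46. With LAMB2 in its place, laminin-421 and laminin-521 had -0.09 and -0.04. These trimers share LAMC1, and their means differ only through the β and α chains.

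Gene length, which the member rule did not use, moved with these differences. Here length is the genomic span of a gene in RefSeq (GRCh38.p14). Over 11264 measured genes with a length, split by length into 4 classes of equal size, the median difference, short to long, was 0.26, 0.24, 0.08 and -0.39, and 1.92%, 4.05%, 10.8% and 40.1% of genes were lower. The 6 lower members spanned 79.1 to 105 kb, so all of them lay in the longest class, which began at 66.2 kb. The other 14 measured members spanned 11.9 to 147 kb. The classes held 0, 2, 7 and 11 measured members, of which 0, 0, 0 and 6 were lower. Within the longest class 6 of 11 members were lower, beside 40.1% of all its genes.

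Long members were not all alike. In the longest class all 5 measured α genes were lower, against neither of the 2 measured β genes (ITGB5 and ITGB8) and 1 of the 4 measured laminin genes. The dim α genes ITGA1, ITGA8, ITGA9, ITGA11 and ITGAM also span more than 66.2 kb. Over all their probe sets they differed by -0.11, 0.16, 0.02, 0.19 and -0.09 in that order, none past 1.5-fold. ITGA4, with every probe set kept, differed by -0.22. LAMC1, LAMB4, LAMA4, ITGB5 and ITGB8 spanned at least 86.0 kb and stayed within the threshold. Spearman's rho between length and difference was -0.35 across the 20 members and -0.49 across all 11264 genes, as a description of genes read on the same 2 arrays. The part of gene length in the member differences was not tested. ITGA4, ITGA6 and ITGAV all lie on chromosome 2, and ITGA2 on chromosome 5, ITGAE on chromosome 17 and LAMB1 on chromosome 7.

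**Figure D4:**
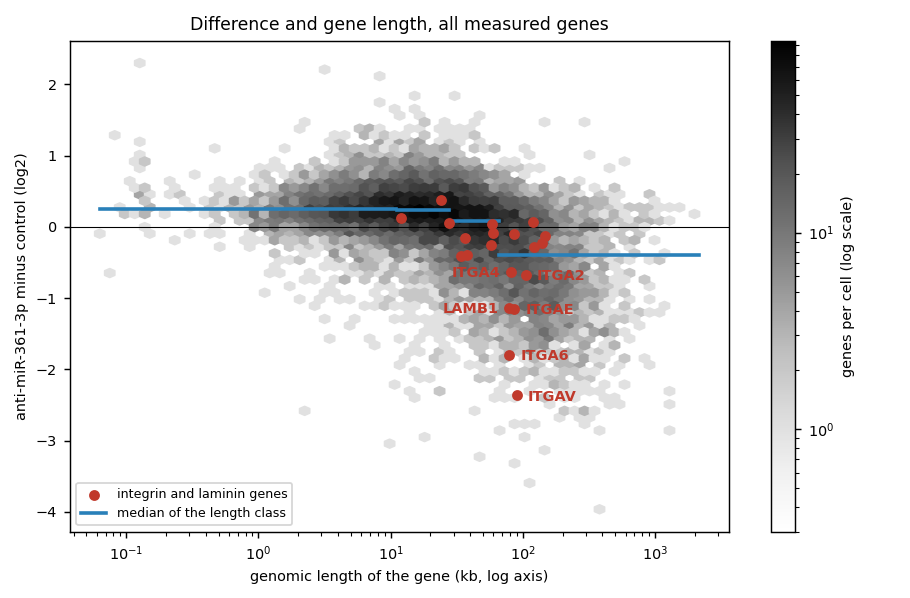
The horizontal axis is the genomic length of a gene (kb, log axis) and the vertical axis its difference (anti-miR-361-3p minus control, log2). Grey cells count all measured genes, red points are the 20 measured integrin and laminin genes, and blue lines are the medians of the 4 length classes. The 6 named lower genes all lie in the longest class, where the median of all genes is -0.39.

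Genes that act with integrins and laminins were examined in 7 lists of 78 genes, of which 59 were measured. In all, 13 were lower and 2 higher past 1.5-fold, and the median was -0.04 (all measured genes 0.13). These are 22.0% lower and 3.39% higher, beside 14.2% and 8.23% of all measured genes. In the longest class 12 of 26 listed genes were lower (46.2%), beside 40.1% of all genes of that class. Outside it 1 of 33, PXN, was lower (3.03%), beside 5.59% of all genes.

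Among adaptors, which couple integrin tails to actin, 4 of 17 were lower (23.5%, beside 14.2% of all measured genes) and none was higher, with a median of 0.06. LIMS1, the PINCH1 partner of the integrin-linked kinase, averaged 7.29 on the anti-miR-361-3p array and 8.95 on the control array, a difference of -1.65 ± 0.19 (SD over 6 probe sets). Tensin 3 (TNS3) differed by -1.57 in 1 retained probe set and by -0.59 over its 3 probe sets. Paxillin (PXN) differed by -0.93 ± 0.54 (SD over 7 probe sets), and vinculin (VCL) by -0.75 ± 0.09 (SD over 2), or -0.34 over its 4 probe sets. The integrin activators TLN1 and FERMT1 differed by 0.21 and -0.20, and ILK by 0.33.

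The adhesion kinases had a median of -0.53, with 3 of 6 lower (50%, beside 14.2% of all measured genes) and none higher. All 3 lower kinases lie in the longest class, where 40.1% of all genes were lower. PTK2, the focal adhesion kinase that integrins activate, averaged 6.22 on the anti-miR-361-3p array and 8.28 on the control array, a difference of -2.06 ± 0.25 (SD over 3 probe sets). PAK2, a kinase downstream of Rac and Cdc42, differed by -0.94 ± 0.17 (SD over 6 probe sets), and YES1, a Src family kinase, by -0.79 (1 probe set). SRC itself differed by -0.05, FYN by -0.27 and PTK2B by 0.27.

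The list of integrin inactivators and tail-binding inhibitors had only 4 measured genes, of which 2 were higher and none was lower, beside 8.23% of all measured genes higher. The list median was 0.48, and all 4 genes lie outside the longest class. Outside that class 886 of all 8448 genes were higher, and the median of all genes was 0.20. NISCH (nischarin), which binds the α5 tail and restrains PAK1, averaged 7.27 on the anti-miR-361-3p array and 6.38 on the control array, a difference of 0.89 ± 0.14 (SD over 3 probe sets). DOK1, which competes with talin for β tails, differed by 0.70 in 1 retained probe set, by 0.37 over its 5 probe sets, and by 0.57 relative to the median gene, the last pair of values being within the threshold. SHARPIN and ITGB1BP1, which hold β1 integrins inactive, differed by 0.27 and 0.24.

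Of the 3 measured hemidesmosome partners of α6β4, only DST passed the threshold (33.3%, beside 14.2% of all measured genes lower). It differed by -0.62 ± 0.62 (SD over 6 probe sets that ran from -1.20 to 0.48). Its mean over all 8 probe sets, -0.44, did not pass. DST encodes BPAG1 in skin and other isoforms elsewhere. PLEC and CD151 differed by 0.07 and 0.28. Among the tetraspanins, membrane organisers of which some associate with laminin-binding integrins, TSPAN14 alone of 11 was lower (9.09%, beside the same 14.2%). TSPAN14 differed by -0.83 ± 0.65 (SD over 4 probe sets), and its brightest probe set gave -0.57. CD9 differed by -0.38 ± 0.02 (SD over 6) and CD63 by 0.21, and the median of the list was -0.04.

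Among basement membrane components 3 of 9 were lower (33.3%, beside 14.2% of all measured genes), with a median of -0.27. These 3 lie in the longest class, where 40.1% of all genes were lower and the median was -0.39. COL4A5 and COL4A1, chains of the type IV collagen network that laminins join, differed by -1.59 ± 0.30 and -1.02 ± 0.10 (SD over 2 probe sets each), or by -1.01 and -0.71 with their dim probe sets. NTN4, a netrin that binds laminin γ chains, differed by -0.90, with its 2 probe sets at -1.40 and -0.40. Of the other integrin ligands only FN1 (fibronectin) was lower of 9 (11.1%, beside the same 14.2%). FN1 differed by -0.90 ± 0.52 (SD over 8 probe sets that ran from -1.15 to 0.35). It averaged 7.98 on the anti-miR-361-3p array and 8.88 on the control array. COL5A1, a fibrillar collagen, differed by -0.56, and THBS1 by -0.24.

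**Figure D5:**
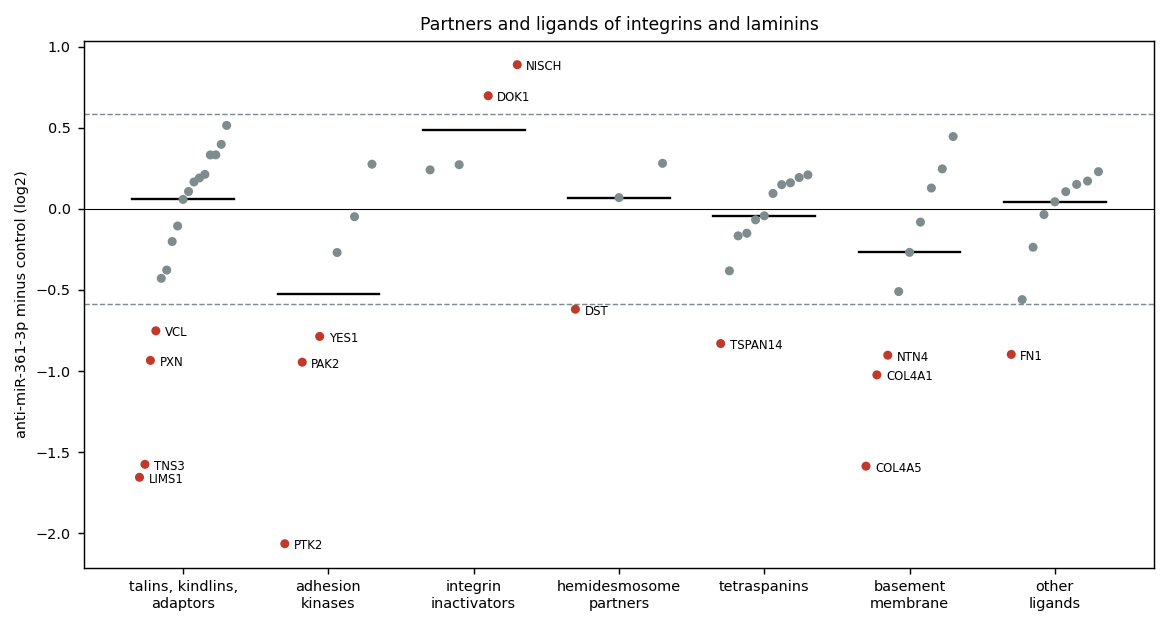
Each point is a measured gene of 1 of the 7 partner and ligand lists, with its difference (anti-miR-361-3p minus control, log2) on the vertical axis. Black bars are list medians, dashed lines mark 1.5-fold, and the named red points are the 15 genes past it. The 2 higher genes, NISCH and DOK1, are both in the list of integrin inactivators, and PTK2 is the lowest point at -2.06.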

How the data were processed

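RNA from GFP-SAS cells of both groups was read on 1 Affymetrix array each. The authors deposited RMA values on the log2 scale, 1 per probe set and array, per the submitters' processing notes. Not given in the sources used here are the RMA version and which arrays entered the run. RMA draws the distributions of arrays together, so a shift shared by most genes would be reduced.

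Of 49386 probe sets 93 were array controls. The platform annotation paired 45253 of the others with 1 symbol and 1327 with several, and left 2713 unnamed. By Entrez ID 45172 matched RefSeq (GRCh38.p14). From these values 24127 probe sets were retained and averaged by gene, and differences are the anti-miR-361-3p value minus the control value. Heterodimers and trimers have the mean of their subunit differences. With 1 array per group no test was run, since the precision is limited by the number of arrays. A fixed fold of 1.5 took the place of a test. The pooled SD between probe sets of a gene was 0.29 over 6263 genes.

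All members are accounted for. Of the partner lists, the genes named are those past 1.5-fold and, in lists with fewer than 3 of these, those with the largest differences up to 3; ILK, TLN1, FERMT1, SRC, FYN, PTK2B and ITGB1BP1 were named beside them after their values were seen. The members and lists were chosen with earlier results of these data known. The counting code was run on simulated data, with 1 shared shift for all probe sets of a changed gene and less noise than the pooled SD above. That run checks the code alone and says nothing on how sure the calls here are. Alternatives were a 2-fold threshold, plain _at probe sets, other filters on dim probe sets, other gene values, and centring on the median gene or a lowess trend (fraction 0.3). Software was matplotlib 3.10.9, statsmodels 0.14.6, scipy 1.17.1, pandas 2.3.3, numpy 2.4.6 and Python 3.11.15.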

Additional observations from a re-analysis of the deposited data

Results flagged for a closer look

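A probe set of ITGA5 that the gene value leaves out as dim was higher on the anti-miR-361-3p array by 0.74 on the log2 scale (4.51 on the anti-miR-361-3p array, against 3.77 on the control array). It was picked out because a difference past 1.5-fold in the direction opposite to most members stands in data that the comparison does not use. Both levels lay below their array's median and below the highest nonspecific controls.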

How the results depend on the processing

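No paired analysis was possible because the study has 1 array for each of its groups. ITGA6, ITGAE, ITGAV and LAMB1 stayed past 1.5-fold lower under every alternative that measured them, and ITGA2 under all but the 2-fold threshold, while no member was higher under any. ITGA4 dropped out with no filter (-0.22) and was not measured under the stricter filters, and with no filter ITGAV differed by -1.28. Plain _at probe sets measured 7 members, of which 2 were lower (ITGA2 and ITGA4); they gave an integrin median of -0.63 over 3 genes and 318 higher and 507 lower genes in all, and no heterodimer or trimer value. The integrin median was -0.55 over 8 genes with the filter at the 75th percentile, and also with a filter at the highest nonspecific control, chosen after seeing the data. These settings tested fewer genes. With no filter it was -0.06 over 26 genes, against -0.25, and over all alternatives the laminin median ran from -0.05 to -0.29, against -0.12. Lower heterodimers numbered 6 of 24 with no filter (αvβ6 in, αvβ3 out), 4 of 6 under both stricter filters, 5 at 2-fold and 7 after either centring (α2β1 added), against 6 of 10. Laminin trimers lower were 1 with the probe set of highest level, 2 after median centring and 1 after lowess centring, against 0. Median centring left 499 genes higher and 1951 lower, and lowess centring 547 and 1898. At 2-fold 139 genes were higher and 787 lower. Of 151 single-gene values under alternatives, 147 moved by less than the pooled SD and none reversed a call. LAMA4 moved to -0.46 with the probe set of highest level or plain _at probe sets alone; the cause was not tested. Among partners, PXN differed by -0.08 with plain _at probe sets. Signal within the range of the nonspecific controls limits both ITGAV probe sets, 1 of ITGA6 and the single one of ITGB5 on the anti-miR-361-3p array. On both arrays it limits 1 of the 2 LAMB1 probe sets and all retained ones of ITGA4, ITGA5, ITGAX, ITGB3, ITGB8, LAMA4, LAMB2 and LAMB4, and 1 of ITGAV is limited on the control array too. Some retained probe sets of ITGA3, ITGB4, LAMB3 and LAMC1 are limited on both arrays as well, and the ITGA3 probe set past 1.5-fold is among them.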
